A study of Mus musculus with 8 samples.

Results

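The genes described here carry out the mitochondrial and peroxisomal oxidation of fatty acids in the liver. They form a list of 41 genes, and each was followed through the probe set that names it alone on the array, or through the one with the highest mean over the arrays where several do. In this way 39 of the 41 genes were measured, out of 12393 genes in all. Cyp4a10 and Ucp2 were not analysed here as single genes, because no probe set names either of them alone. The list was not chosen by a cut on the measured values.

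Liver RNA from 4 genotypes of mice on a C57BL background was hybridised to 8 Affymetrix arrays, 2 for each genotype. The genotypes were wild-type, SHP-/- (a knockout of the small heterodimer partner, encoded by Nr0b2), OB-/- (a leptin knockout), and OB-/-/SHP-/-, which lacks both. All mice were fed standard chow, and the sources used here give neither age nor sex. The knockouts are recorded as whole genotypes with no Cre or tissue-specific promoter, so leptin and SHP are missing from every tissue and not from the liver alone. The labels do not state that the arrays within a genotype come from different mice, so a p-value reflects the spread from array to array, which may be technical. Values are log2 expression values, so that a difference of 1 is a 2-fold change, and each difference is given with its moderated standard error (SE) from limma. A gene was called changed, or said to rise or fall, at a Benjamini-Hochberg adjusted p below 0.05 over all 12393 genes.

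Fatty acids are activated to acyl-CoA and enter mitochondria through the carnitine shuttle, where the beta-oxidation spiral shortens them step by step and hands electrons to the respiratory chain. Peroxisomes shorten very long and branched chains, microsomal omega-oxidation turns the far end of the chain into a second acid group, and thioesterases release free fatty acids from acyl-CoA. Many of these genes are known targets of PPAR alpha, a nuclear receptor that fatty acids activate in fasting and in fatty liver and that binds DNA with the receptor RXR. SHP is an unusual member of the same receptor family that cannot bind DNA by itself and instead silences partner receptors. Leptin is the fat hormone that restrains feeding, and mice without it become obese with fatty livers.

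A movement common to several of these genes was that of 4 acyl-CoA thioesterases and of Pex11a, a protein of the peroxisomal membrane that promotes peroxisome division, all of which rose with the loss of leptin whether SHP was present or not. In the absence of SHP the calls of Acot1 and Acot4 depended on the processing, as given with their values. That of Acot4 also depended on the probe set. The 4 thioesterase genes lie next to each other on chromosome 12 in the order Acot2, Acot1, Acot4 and Acot3, with no other protein-coding gene between them in the RefSeq annotation of GRCm38.p6. Their promoters and that of Pex11a are shown as 5 of the 8 genes that rose with the loss of leptin both with and without SHP. Abcd3, Slc25a20 and Aldh3a2 were the others. Each line gives the 250 bases before the annotated start, 5′ to 3′ on the gene's own strand, and capitals mark the letters of the nuclear receptor core motif (AGGTCA or its reverse complement TGACCT). The windows are chr12:83987611-83987860 on the plus strand for Acot2, chr12:84009252-84009501 on the plus strand for Acot1, chr12:84038129-84038378 on the plus strand for Acot4, chr12:84051894-84052143 on the plus strand for Acot3, and chr7:79743132-79743381 on the minus strand for Pex11a. The RefSeq table holds 2 windows for Acot3, and the one with the lower start is shown.
Acot2: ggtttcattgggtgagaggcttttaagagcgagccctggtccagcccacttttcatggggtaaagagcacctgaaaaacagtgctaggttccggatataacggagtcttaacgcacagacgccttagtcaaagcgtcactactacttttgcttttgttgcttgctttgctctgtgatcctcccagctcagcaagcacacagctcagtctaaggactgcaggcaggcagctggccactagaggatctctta
Acot1: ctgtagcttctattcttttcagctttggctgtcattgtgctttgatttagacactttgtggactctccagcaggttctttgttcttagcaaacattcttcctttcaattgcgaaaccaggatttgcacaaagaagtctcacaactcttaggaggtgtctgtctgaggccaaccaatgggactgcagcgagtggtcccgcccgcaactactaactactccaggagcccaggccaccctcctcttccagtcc
Acot4: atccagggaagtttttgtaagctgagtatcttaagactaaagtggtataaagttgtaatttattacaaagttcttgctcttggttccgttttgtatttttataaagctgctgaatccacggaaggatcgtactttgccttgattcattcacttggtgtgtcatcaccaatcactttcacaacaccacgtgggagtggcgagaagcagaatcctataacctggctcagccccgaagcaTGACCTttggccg
Acot3: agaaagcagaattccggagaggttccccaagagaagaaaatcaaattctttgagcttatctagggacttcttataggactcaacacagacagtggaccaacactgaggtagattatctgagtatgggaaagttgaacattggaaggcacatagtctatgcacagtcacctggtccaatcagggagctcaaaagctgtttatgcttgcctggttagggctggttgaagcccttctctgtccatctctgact
Pex11a: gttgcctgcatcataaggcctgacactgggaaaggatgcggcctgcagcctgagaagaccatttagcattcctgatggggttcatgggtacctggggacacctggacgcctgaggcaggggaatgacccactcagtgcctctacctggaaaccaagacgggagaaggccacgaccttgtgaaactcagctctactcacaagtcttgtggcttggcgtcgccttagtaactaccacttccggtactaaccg

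Aligned in pairs, the 4 thioesterase windows were identical at 49.5% to 51.9% of the aligned columns, and Pex11a shared 47.9% to 50.8% of columns with them, so in these windows the 4 neighbours were about as far from each other as from Pex11a on another chromosome. The core motif occurred once among the 5 windows, in Acot4, with its first base 13 bases before the start. PPAR alpha and RXR are known to bind a direct repeat of this motif with 1 base between the repeats. That repeat, AGGTCANAGGTCA searched on both strands, was in 0 of the 32 member genes with a window in the table and in 0.0407% of all 27025 genes with one, and the looser form AGGNCANAGGNCA was in 0 of 32 and in 0.4%. The core motif alone, which lies inside each strict repeat, was in 5 of the 32 (Acadm, Acadvl, Acot4, Cpt1a and Scp2) and in 15.8% of all genes, which is close to the share of the members. These counts say only which letters stand in the 250 bases before each start.

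Array medians lay between 5.45 and 5.56, and arrays of the same genotype correlated across genes at r = 0.992 to 0.995. Between the 2 arrays of a genotype the member genes differed by a median of 0.12 to 0.16, with the widest gaps for Abcd2 in SHP-/- (1.86), Pdk4 in OB-/-/SHP-/- (1.21), Fgf21 in wild-type (0.95) and Crot in OB-/- (0.59). Nr0b2, the knocked-out gene, read 8.74 and 8.71 in wild-type, 7.78 and 8.31 in SHP-/-, against 8.01 and 8.01 in OB-/- beside 7.11 and 6.66 in OB-/-/SHP-/-. Each SHP knockout array was below both arrays with the same leptin genotype, but 1 SHP-/- array was above both OB-/- arrays, and the sources used here do not say whether this probe set lies in the deleted part. Lep read 3.16 to 3.53 on all arrays, and fat cells, not liver cells, make leptin, so it checks nothing here. Albumin (Alb), the defining hepatocyte marker, was at 13.87 to 14.07 on every array, and the 8 measured of 9 hepatocyte markers summed to 16.02 to 16.26 on the log2 scale, a sum that the brightest of them set. In OB-/- against wild-type 6 of these 8 were lower on both arrays, with a median difference of -0.30, and 2 fell, Tat by 0.65 and Cps1 by 0.51 (limma adjusted p = 0.0144 and 0.025). None of the 8 was called in OB-/-/SHP-/- against SHP-/-, where their median was -0.09. There 1 had an unadjusted p below 0.05 (12.5%, against 25.7% of all genes). In OB-/-/SHP-/- against OB-/- 1 of the 8 was called, Tat, which rose by 0.68 (limma adjusted p = 0.0489). Its means were 11.87 in OB-/- and 12.54 in OB-/-/SHP-/-. The 3′ signal of Gapdh exceeded its 5′ signal by 0.79 and 1.00 in wild-type, 0.19 and 0.35 in SHP-/-, and by -0.07 to 0.11 in both leptin-null genotypes. For Actb the offset was 1.89 and 1.87 in wild-type, 1.25 and 1.35 in SHP-/-, and 0.77 to 0.93 in both leptin-null genotypes. Both offsets move with genotype and were largest in wild-type, and their part in the results below was not tested. Xist read 7.41 in OB-/- replicate 1 and 4.31 to 4.70 elsewhere, while the Y-linked Eif2s3y read 6.57 to 7.50 on all 8 arrays, so this one array stands apart, and the calls that are lost without it are given with the results.

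**Figure D1:**
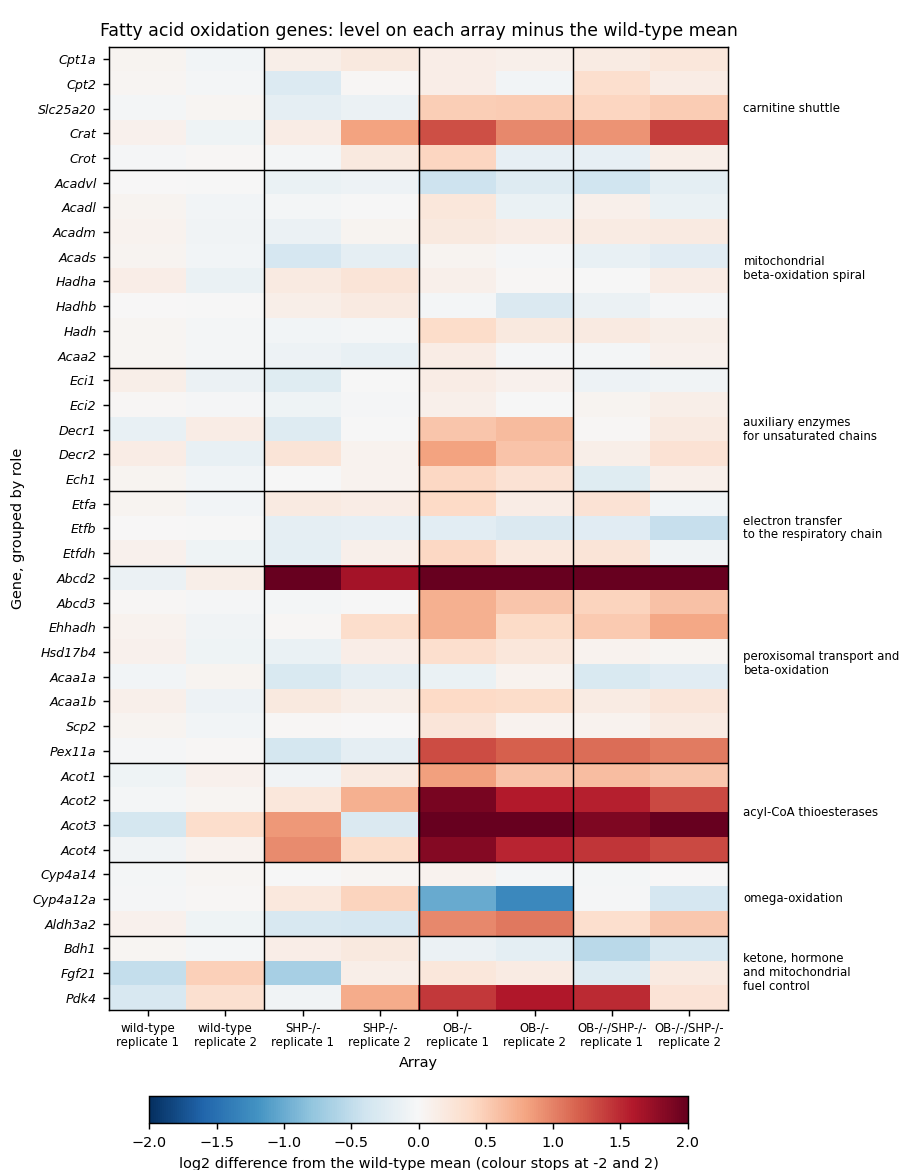
Each row is 1 of the 39 measured genes, grouped by role, each column is 1 of the 8 arrays, and colour gives the log2 value minus the mean of that gene in wild-type, with the colour scale ending at 2 in either direction. The 4 thioesterases, Pex11a and Abcd2 are above wild-type on all 4 leptin-null arrays, while the rows of the mitochondrial spiral stay near 0.

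Loss of leptin with SHP present (OB-/- against wild-type) raised 14 of the 39 genes and lowered 1. Of all 12393 genes, 16.9% were called in this comparison (7.58% higher and 9.36% lower), against 38.5% of these 39. The median difference of the 39 was 0.27 with 33 above 0, where the median over all genes was -0.01 with 48.8% above 0. The genes that rose belonged to thioester cleavage (4 of 4), peroxisomal oxidation (4 of 8), the carnitine shuttle (2 of 5), the auxiliary enzymes for unsaturated chains (2 of 5), omega-oxidation (1 of 3) and the group for ketones, hormones and fuel choice (1 of 3). No gene of the mitochondrial spiral (8 measured) or of electron transfer (3 measured) was called in either direction. In bulk liver, more cells of a type and more RNA per cell cannot be told apart.

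The thioesterases hydrolyse acyl-CoA to free acid and CoA, Acot1 in the cytosol, Acot2 in mitochondria and Acot3 and Acot4 in peroxisomes. Acot3 read 7.786 and 8.493 in wild-type, 9.001 and 7.846 in SHP-/-, against 10.247 and 10.225 in OB-/- beside 10.005 and 10.176 in OB-/-/SHP-/-. All 4 leptin-null arrays were above all 4 others, and the rise was 2.10 ± 0.31 with SHP (4.28-fold, limma adjusted p = 0.00116) and 1.67 ± 0.31 without it (3.17-fold, adjusted p = 0.00722), where leaving out OB-/-/SHP-/- replicate 2 took the latter just past the threshold (adjusted p = 0.0511). Acot2 read 4.02 and 4.09 in wild-type, 4.28 and 4.77 in SHP-/-, against 5.95 and 5.65 in OB-/- beside 5.61 and 5.38 in OB-/-/SHP-/-. Here too the leptin-null arrays stood clear of the rest, by 1.74 ± 0.18 with SHP (adjusted p = 0.000106) and 0.97 ± 0.18 without it (adjusted p = 0.00684). The wild-type arrays were at the level that Ucp1, a gene of brown fat, gave on them (3.96 and 4.21) and below the 40th percentile of probe set means (4.83). The files give no detection calls, so a level above background is not shown for Acot2 in wild-type and no fold is given.

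Acot4 read 7.43 and 7.56 in wild-type, 8.44 and 7.85 in SHP-/-, against 9.34 and 9.02 in OB-/- beside 8.93 and 8.82 in OB-/-/SHP-/-. It rose by 1.69 ± 0.19 with SHP (3.22-fold, limma adjusted p = 0.00019) and by 0.72 ± 0.19 without it (adjusted p = 0.0363), with no overlap between leptin-null and leptin-intact arrays. The call without SHP was lost in 7 of 17 alternatives, among them the loss of either OB-/-/SHP-/- array, either wild-type array or SHP-/- replicate 2 (adjusted p up to 0.238). A second Acot4 probe set gave 1.46 with SHP (limma adjusted p = 0.00227 over all probe sets). Without SHP it gave only 0.35 (adjusted p = 0.399), and its OB-/-/SHP-/- and SHP-/- arrays overlapped. Acot1 had the narrowest span of the 4, reading 9.43 and 9.59 in wild-type, 9.44 and 9.68 in SHP-/-, against 10.33 and 10.08 in OB-/- beside 10.13 and 10.05 in OB-/-/SHP-/-. Its rise was 0.69 ± 0.15 with SHP (adjusted p = 0.00933) and 0.53 ± 0.15 without it (adjusted p = 0.0462). The first call was lost without OB-/- replicate 1 (0.57, adjusted p = 0.0889) or wild-type replicate 1. The second held in only 5 of 17 alternatives and was lost with equal array medians, with the replicate block, with only the arrays compared and with any single array left out (adjusted p up to 0.266). The split between Acot1 and Acot2 is uncertain, because a further probe set names both together, and it gave 0.97 (adjusted p = 0.00309) with SHP and 0.46 (adjusted p = 0.115) without it.

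**Figure D2:**
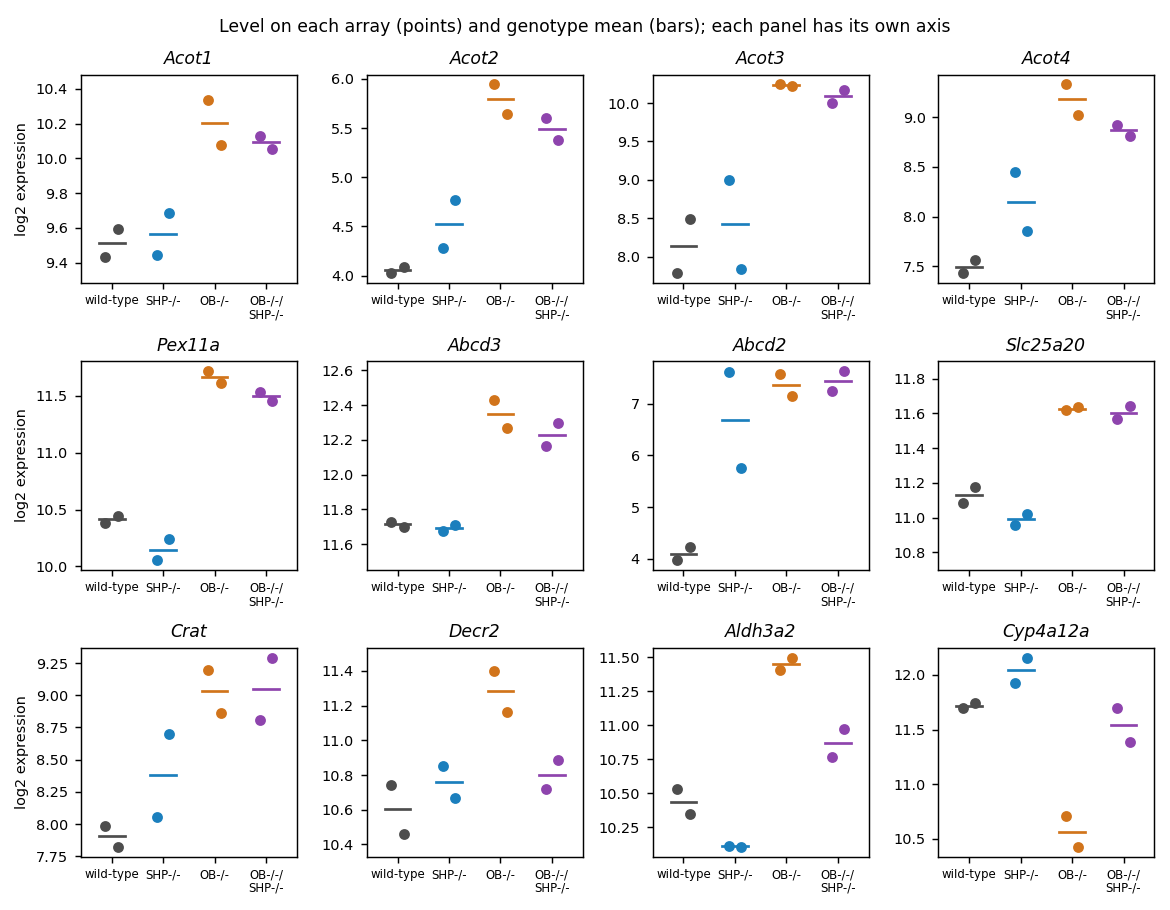
Each panel shows 1 gene, with a point for each of the 8 arrays on the log2 scale by genotype and a bar at the mean of the 2 arrays. Acot3 and Pex11a separate leptin-null from leptin-intact arrays with no overlap, Abcd2 is lowest in wild-type, and Cyp4a12a is lowest in OB-/-.

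Among the peroxisomal genes, Pex11a read 10.38 and 10.44 in wild-type, 10.05 and 10.24 in SHP-/-, against 11.72 and 11.61 in OB-/- beside 11.54 and 11.45 in OB-/-/SHP-/-. It rose by 1.25 ± 0.13 with SHP (2.38-fold, limma adjusted p = 0.000132) and by 1.35 ± 0.13 without it (2.55-fold, adjusted p = 0.00011), and a second probe set gave 1.66 and 1.51. Among the 39 genes, Pex11a alone kept its call in the absence of SHP under every alternative run. Abcd3, the ABC transporter that carries branched and long-chain acyl-CoA into peroxisomes, read 11.73 and 11.70 in wild-type, 11.67 and 11.71 in SHP-/-, against 12.43 and 12.27 in OB-/- beside 12.17 and 12.30 in OB-/-/SHP-/-. Its rise was 0.64 ± 0.13 with SHP (adjusted p = 0.00763) and 0.54 ± 0.13 without it (adjusted p = 0.0256), again with no overlap. Without OB-/- replicate 1 the first was 0.55 (adjusted p = 0.0714), and the second lost its call without either SHP-/- array or OB-/-/SHP-/- replicate 2 (adjusted p up to 0.145).

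Ehhadh, the peroxisomal bifunctional enzyme for straight chains, read 11.42 and 11.30 in wild-type, 11.38 and 11.72 in SHP-/-, against 12.08 and 11.74 in OB-/- beside 11.88 and 12.14 in OB-/-/SHP-/-. The rise with SHP was 0.55 ± 0.17, just inside the threshold (limma adjusted p = 0.0496), and it lost its call when any of the 4 arrays compared was left out (adjusted p up to 0.302 over the alternatives). Without SHP the difference was 0.46 (adjusted p = 0.117). Abcd2, the ABC transporter for very long unsaturated chains, read 3.97 and 4.22 in wild-type and 7.58 and 7.15 in OB-/-, a rise of 3.27 ± 0.43 (adjusted p = 0.000516). As for Acot2, the wild-type arrays were at the level of Ucp1 and below 4.83, so no fold is given. It differed by 0.76 ± 0.43 between OB-/-/SHP-/- and SHP-/- (adjusted p = 0.303), and its values in SHP-/- are given with the SHP comparisons below.

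The other 4 peroxisomal genes were not called in either leptin comparison. Acaa1b, a thiolase, gave the largest uncalled difference of this group with SHP present, 0.38 (limma adjusted p = 0.0753), and Hsd17b4, the bifunctional enzyme for branched chains, gave 0.28 (adjusted p = 0.218). Scp2, a thiolase and sterol carrier, gave 0.16, and Acaa1a, the second thiolase gene, gave -0.03. A second probe set of Hsd17b4 gave 0.70 ± 0.16 (adjusted p = 0.0159 over all probe sets), and the probe sets that name Acaa1a and Acaa1b together gave 0.65 and 0.42 (adjusted p = 0.00731 and 0.0564), so the probe sets of these genes disagree on the call.

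In the carnitine shuttle, Crat, which moves short acyl groups between CoA and carnitine, read 7.99 and 7.82 in wild-type, 8.06 and 8.70 in SHP-/-, against 9.20 and 8.86 in OB-/- beside 8.81 and 9.29 in OB-/-/SHP-/-. It rose by 1.13 ± 0.23 with SHP (2.18-fold, limma adjusted p = 0.00632) and differed by 0.67 ± 0.23 without it (adjusted p = 0.0848), where a second probe set gave only 0.29 (adjusted p = 0.408) with SHP. Without OB-/- replicate 1 the rise was 0.96 (adjusted p = 0.0684), and the call was also lost without wild-type replicate 2. Slc25a20, the carrier that exchanges acylcarnitine for carnitine across the inner membrane, read 11.09 and 11.18 in wild-type, 10.96 and 11.02 in SHP-/-, against 11.62 and 11.63 in OB-/- beside 11.57 and 11.64 in OB-/-/SHP-/-. Its 4 leptin-null arrays lay close together and above all others, a rise of 0.50 ± 0.13 with SHP (adjusted p = 0.0217) and 0.61 ± 0.13 without it (adjusted p = 0.0121). The first lost its call with any of the 4 arrays compared left out (0.50 and adjusted p = 0.094 without OB-/- replicate 1, and adjusted p up to 0.124), and the second without OB-/-/SHP-/- replicate 2 or SHP-/- replicate 1 (adjusted p up to 0.104). Cpt1a, the gate of the shuttle that malonyl-CoA inhibits, was between 11.74 and 12.02 on all 8 arrays and differed by 0.12 ± 0.13 with SHP and 0.04 ± 0.13 without it. Cpt2, which regenerates acyl-CoA inside, differed by 0.04 and 0.37 (adjusted p = 0.898 and 0.145), and Crot, which exports peroxisomal products as carnitine esters, by 0.13 and -0.10.

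The 8 measured enzymes of the mitochondrial spiral differed by -0.33 to 0.28 with the loss of leptin when SHP was present and by -0.22 to 0.20 when it was not. Hadh, the short-chain hydroxyacyl-CoA dehydrogenase, read 12.72 and 12.65 in wild-type, 12.62 and 12.64 in SHP-/-, against 13.05 and 12.88 in OB-/- beside 12.86 and 12.80 in OB-/-/SHP-/-. All leptin-null arrays were above the others by this narrow margin, and neither difference was called (0.28 and 0.20, limma adjusted p = 0.177 and 0.365). Acaa2, the thiolase that ends each round, read 12.35 and 12.27 in wild-type, 12.20 and 12.16 in SHP-/-, against 12.46 and 12.28 in OB-/- beside 12.27 and 12.39 in OB-/-/SHP-/-, with groups that overlap. The lowest value of the group was that of Acadvl, the very-long-chain dehydrogenase, at -0.33 with SHP (adjusted p = 0.126), and Acadm, the medium-chain dehydrogenase, gave 0.18 and 0.20. A second probe set of Hadh gave 0.75 ± 0.13 (adjusted p = 0.0043 over all probe sets) and another of Acaa2 gave 0.78 ± 0.14 (adjusted p = 0.00433), so the count of 0 of 8 holds for the brightest probe set of each gene. It also holds for the main fit only, because with SHP present Hadh was called higher in 3 of 17 alternatives and Acadvl lower in 1.

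Among the auxiliary enzymes, which move or reduce double bonds that the spiral cannot handle, the 2 dienoyl-CoA reductases rose with SHP present. Decr1, the mitochondrial one, read 11.28 and 11.57 in wild-type, 11.17 and 11.41 in SHP-/-, against 11.98 and 12.06 in OB-/- beside 11.45 and 11.60 in OB-/-/SHP-/-. Only OB-/- stood clear of the rest, at 0.59 ± 0.15 above wild-type (limma adjusted p = 0.0216), and a second probe set gave 0.13 (adjusted p = 0.72). Decr2, the peroxisomal one, read 10.74 and 10.46 in wild-type, 10.85 and 10.67 in SHP-/-, against 11.40 and 11.17 in OB-/- beside 10.72 and 10.89 in OB-/-/SHP-/-. OB-/- was higher by 0.68 ± 0.16 (adjusted p = 0.0125), and of the double-knockout arrays 1 lay among the leptin-intact values and 1 just above them. Without OB-/- replicate 1 the rises of Decr1 and Decr2 were 0.63 and 0.56 (adjusted p = 0.0828 and 0.106), neither of them called, and each call was also lost without a wild-type array. Ech1, a dienoyl-CoA isomerase, gave 0.35 (adjusted p = 0.144), and the enoyl-CoA isomerases Eci1 and Eci2 gave 0.11 and 0.05.

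Electron transfer flavoprotein and its dehydrogenase carry electrons from the acyl-CoA dehydrogenases to ubiquinone. Etfb read 12.34 and 12.34 in wild-type, 12.15 and 12.17 in SHP-/-, against 12.12 and 12.05 in OB-/- beside 12.10 and 11.88 in OB-/-/SHP-/-. Etfa read 11.41 and 11.30 in wild-type, 11.53 and 11.50 in SHP-/-, against 11.74 and 11.51 in OB-/- beside 11.64 and 11.30 in OB-/-/SHP-/-. The subunits of the one flavoprotein thus had differences of opposite sign with SHP present, -0.25 and 0.27, and neither was called (limma adjusted p = 0.24 and 0.275). Etfdh gave 0.31 (adjusted p = 0.242).

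Omega-oxidation held a gene that rose and one that fell. Aldh3a2, the fatty aldehyde dehydrogenase, read 10.53 and 10.35 in wild-type, 10.11 and 10.10 in SHP-/-, against 11.41 and 11.50 in OB-/- beside 10.77 and 10.97 in OB-/-/SHP-/-. It rose by 1.01 ± 0.14 with SHP (2.02-fold, limma adjusted p = 0.000632) and by 0.76 ± 0.14 without it (adjusted p = 0.00605), with the double knockout between OB-/- and wild-type. Cyp4a12a, a fatty acid omega-hydroxylase known for higher expression in male mice, fell by 1.16 ± 0.16 in OB-/- (2.23-fold, adjusted p = 0.000709), and its arrays are given with the SHP comparisons. Cyp4a14, another omega-hydroxylase and a PPAR alpha target, stayed between 12.82 and 12.93 on all 8 arrays, a span of 0.11. The probe set that names Cyp4a31 and Cyp4a10 together was at 12.65 to 12.97 and differed by 0.17 in OB-/- (adjusted p = 0.439).

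In the last group, Pdk4, the kinase that shuts off pyruvate dehydrogenase and so spares glucose, read 4.62 and 5.26 in wild-type, 4.87 and 5.69 in SHP-/-, against 6.35 and 6.54 in OB-/- beside 6.43 and 5.22 in OB-/-/SHP-/-. It rose by 1.502 ± 0.363 with SHP (limma adjusted p = 0.0161) and lost the call without either OB-/- array or wild-type replicate 1 (adjusted p up to 0.157). Without SHP the difference was 0.54 ± 0.36 (adjusted p = 0.387), with 1 double-knockout array at the OB-/- level and the other among the wild-type values. Bdh1, which makes the ketone body beta-hydroxybutyrate, read 11.69 and 11.62 in wild-type, 11.78 and 11.85 in SHP-/-, against 11.54 and 11.46 in OB-/- beside 11.12 and 11.33 in OB-/-/SHP-/-. It fell by 0.59 ± 0.13 with leptin loss in the absence of SHP (adjusted p = 0.0188) and differed by -0.15 with SHP present. The fall lost its call without OB-/-/SHP-/- replicate 1 or either SHP-/- array (adjusted p up to 0.0949). A second Bdh1 probe set differed by -0.44 with SHP present and by -0.49 without it. Neither was called (limma adjusted p = 0.0531 and 0.0549 over all probe sets), so a fall limited to liver without SHP was not seen there. Fgf21, a hormone of the fasted liver and a PPAR alpha target, read between 6.52 and 7.65 with overlapping groups, and its difference in OB-/- was 0.20 ± 0.30.

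Loss of leptin without SHP (OB-/-/SHP-/- against SHP-/-) raised 8 of the 39 genes and lowered 1, a share of 23.1% where 10.6% of all genes were called, 4.95% higher and 5.62% lower. The median was 0.14 with 28 above 0, against 0.03 over all genes. Each of the 8 that rose, Acot1 to Acot4, Pex11a, Abcd3, Slc25a20 and Aldh3a2, was also among the 14 that rose with SHP present. That is 57.1% of the 14 and 100% of the 8, and over all genes the 360 that rose in both (2.9% of all) made up 38.3% of the 940 and 58.6% of the 614. None of the 39 fell in both comparisons with limma, where 3.88% of all genes did. The comparisons share no array, and 34 of the 39 differences had the same sign in both (87.2%, against 72.3% of all genes). Across the 39 genes the differences correlated at r = 0.80 and rho = 0.82, and without Abcd2 at r = 0.88 and rho = 0.81, as a description of genes on the same arrays and not of replicates. Over all genes r was 0.72 and rho 0.65.

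**Figure D3:**
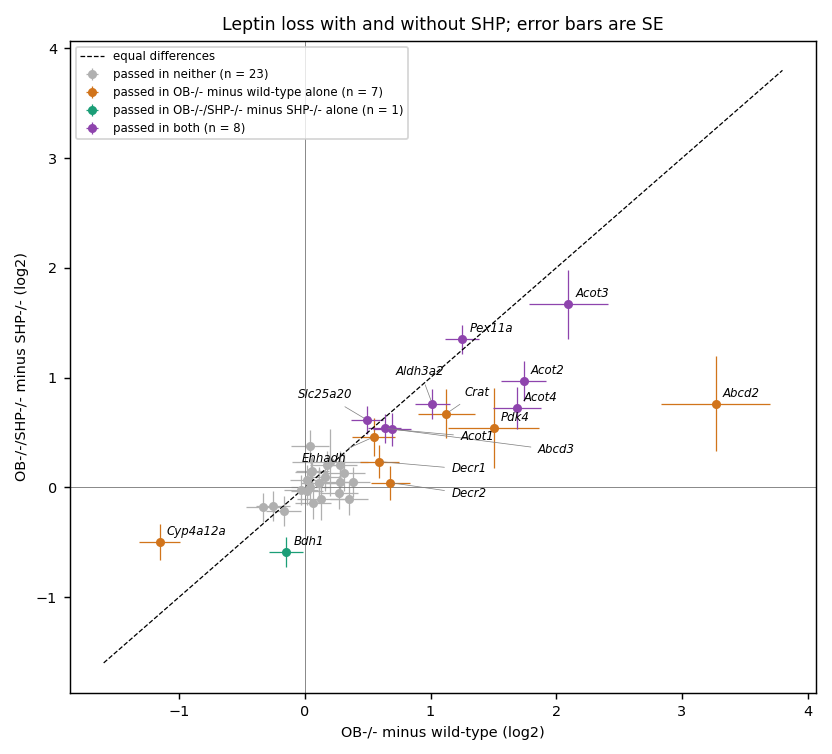
Each point is 1 of the 39 genes, with its log2 difference for OB-/- minus wild-type on the horizontal axis and for OB-/-/SHP-/- minus SHP-/- on the vertical axis, bars are SE, and the dashed line marks equal differences. The 8 genes that passed in both lie near the line or below it, and Abcd2 lies far below it at 3.27 and 0.76.

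The 6 genes that rose with SHP present but were not called without it were Abcd2, Pdk4, Crat, Decr1, Decr2 and Ehhadh, and the difference between the comparisons was tested by the interaction. No member passed that test with limma, where 0.549% of all genes did, 6 of 39 had an unadjusted p below 0.05 (15.4%, against 8.28% of all genes), and the test of every probe set by itself also called 0. The lowest adjusted p was 0.147, for Abcd2 at -2.51 ± 0.61, followed by Acot4 at -0.97 ± 0.27 (adjusted p = 0.234) and Acot2 at -0.77 ± 0.26 (adjusted p = 0.356). Decr2 gave -0.64 ± 0.22, Cyp4a12a 0.66 ± 0.23 and Bdh1 -0.44 ± 0.19 (adjusted p = 0.397, 0.394 and 0.56). Second probe sets gave -0.05 for Bdh1 and -1.10 for Acot4. Of the 39 values 27 were below 0, with a median of -0.09, against 0.04 over all genes. Leaving out SHP-/- replicate 1 gave 1 call, Abcd2 at -1.58 (adjusted p = 0.0339), and leaving out SHP-/- replicate 2 gave 2, Abcd2 at -3.44 and Acot4 at -1.26 (adjusted p = 6.63e-05 and 0.0323).

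The count of leptin-dependent genes rests in part on single arrays. Without OB-/- replicate 1, the array with the Xist signal, 7 of the 39 were called against wild-type, where 7.71% of all genes were, and without OB-/-/SHP-/- replicate 2 there were 4 in the other comparison, where 4.84% of all genes were. The count was also lower without wild-type replicate 1 in the first comparison and without either SHP-/- array in the second. With an array left out, the share of all genes called moved as well. Abcd2, Pex11a, Acot2, Acot3, Acot4, Cyp4a12a and Aldh3a2 kept their calls against wild-type under every alternative run. For Acot3 these were 16 and not 17, because its only probe set is an s_at one. Mean levels of Acot2 in wild-type and SHP-/- (4.06 and 4.52) and of Abcd2 in wild-type (4.10) were below 4.83. Both genes thus passed the filter on dim genes through their other genotypes, so that alternative is no support for their calls. The 10 macrophage markers, all measured, moved with the same comparisons, with a summed log2 level of 10.33 and 10.33 in wild-type, 11.66 and 11.18 in SHP-/-, against 11.81 and 11.83 in OB-/- beside 11.99 and 12.42 in OB-/-/SHP-/-. In OB-/- 9 of these 10 rose and in the double knockout against SHP-/- 3 rose, and their part in the results was not tested. The 7 stellate cell markers summed to 10.15 and 10.12 in wild-type, 10.54 and 10.33 in SHP-/-, against 10.67 and 10.70 in OB-/- beside 10.62 and 10.79 in OB-/-/SHP-/-, and 3 of the 7, the collagens Col1a1, Col1a2 and Col3a1, rose in OB-/- against wild-type. The 6 measured pancreas markers summed to 9.66 and 8.96 in OB-/- and to 7.84 to 8.40 elsewhere, with 4 higher and 1 lower against wild-type. The 6 endothelial markers summed to 10.11 and 10.09 against 9.37 to 9.92, with 3 higher. In OB-/-/SHP-/- against OB-/- 2 macrophage markers rose, while 3 pancreas markers and 1 stellate cell marker fell. The part of these cells was not tested either. The 4 measured fat cell markers summed to 6.02 to 6.21 on leptin-intact arrays and to 6.43 to 6.72 on leptin-null arrays. Of these, Retn rose by 0.63 in OB-/- against wild-type (limma adjusted p = 0.0239). It rose by 1.01 in OB-/-/SHP-/- against SHP-/- (adjusted p = 0.00346). The other 3 were not called, among them Adipoq at 2.79 to 3.07 on all arrays, and the part of fat cells was not tested.

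Loss of SHP in lean mice (SHP-/- against wild-type) changed 1 of the 39 genes, 2.56%, where 0.323% of all genes were called, 0.226% higher and 0.0968% lower. That gene was Abcd2, which read 3.97 and 4.22 in wild-type, 7.61 and 5.75 in SHP-/-, against 7.58 and 7.15 in OB-/- beside 7.25 and 7.63 in OB-/-/SHP-/-. Wild-type was low, 1 SHP-/- array was at the level of the leptin-null mice, and the other lay midway between. The rise was 2.59 ± 0.43 (limma adjusted p = 0.0349), over a wild-type level not shown to be above background, and it was 1.66 without SHP-/- replicate 1 and 3.51 without SHP-/- replicate 2. The call was lost without either wild-type array or either OB-/- array, with quantile normalisation, with the 4 arrays alone and with averaged probe sets (adjusted p up to 0.301). The SHP-/- array with more Abcd2 also had the higher macrophage sum, and all 10 macrophage markers were above wild-type in SHP-/-, with Mpeg1 called (1.74, adjusted p = 0.00173). The part of these cells in the Abcd2 result was not tested.

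The other 38 genes were not called in lean SHP-/- liver. Their median with Abcd2 included was 0.01, against -0.03 over all genes, and 4 of the 39 had an unadjusted p below 0.05 (10.3%, against 7.12% of all genes). The other 3 of these were Acot4 at 0.66 ± 0.19 (limma adjusted p = 0.327), Acot2 at 0.47 ± 0.18 (adjusted p = 0.592) and Aldh3a2 at -0.33 ± 0.14 (adjusted p = 0.653). For 36 of the 39 genes the 95% interval of the difference lay within a 2-fold change either way, the exceptions being Abcd2, Pdk4 and Acot4, so 92.3% were bounded in this way, against 97.4% of all genes. These intervals cover the spread between the arrays alone.

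Loss of SHP in leptin-null mice (OB-/-/SHP-/- against OB-/-) also changed 1 of the 39 genes, where 2.14% of all genes were called, 1.26% higher. Cyp4a12a read 11.70 and 11.74 in wild-type, 11.93 and 12.16 in SHP-/-, against 10.71 and 10.42 in OB-/- beside 11.70 and 11.39 in OB-/-/SHP-/-. Both OB-/- arrays were below the other 6. The double knockout was above OB-/- by 0.98 ± 0.16 (1.97-fold, limma adjusted p = 0.00828), and against SHP-/- it differed by -0.50 ± 0.16 (adjusted p = 0.0746). This rise and the fall of Cyp4a12a against wild-type share the OB-/- arrays. OB-/- replicate 1 had the Xist signal, and without it the rise was 1.12 (adjusted p = 0.0333) and the fall against wild-type -1.30 (adjusted p = 0.00419), each as large as with it. Without OB-/- replicate 2 the rise was 0.84 (adjusted p = 0.121) and without OB-/-/SHP-/- replicate 1 it was 0.82 (adjusted p = 0.057).

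**Figure D4:**
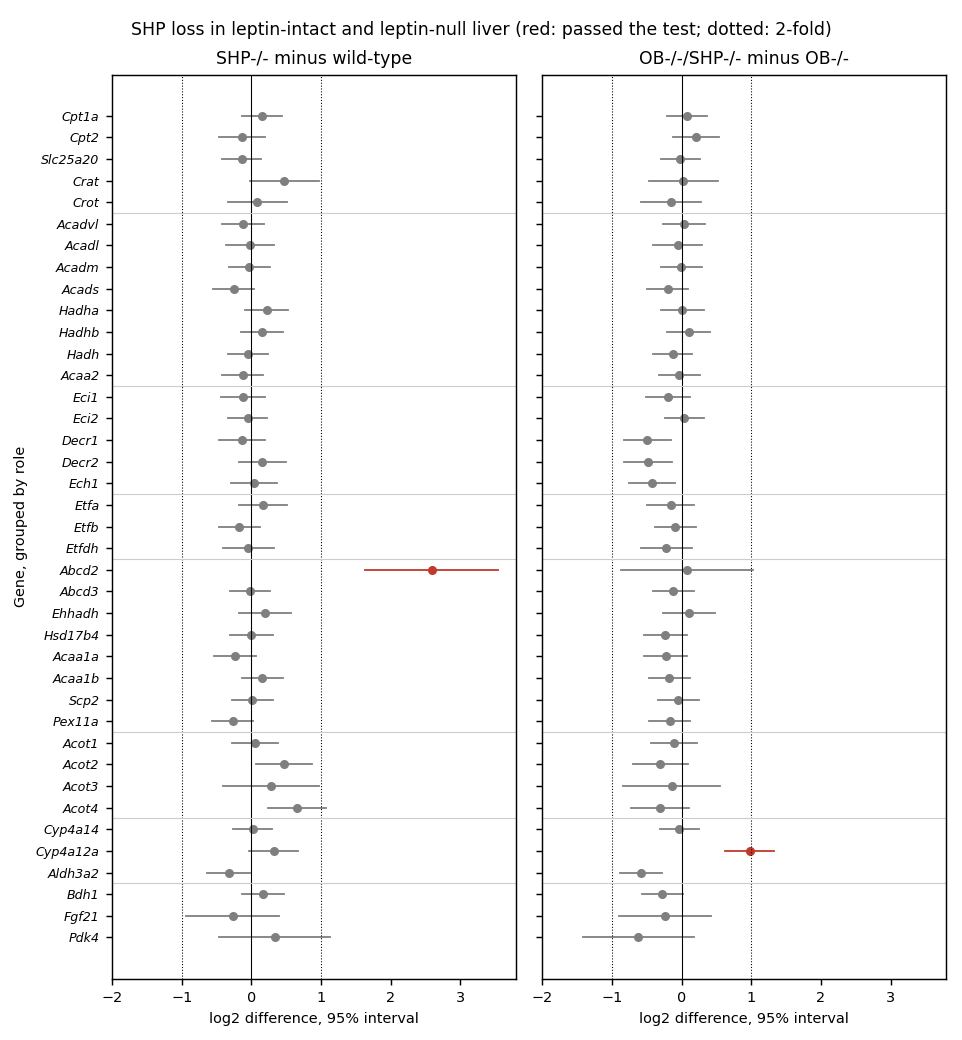
Each of the 39 genes has its log2 difference for SHP-/- minus wild-type and for OB-/-/SHP-/- minus OB-/-, with bars for the 95% interval, and red points mark an adjusted p below 0.05. Abcd2 passed in lean mice at 2.59 and Cyp4a12a in leptin-null mice at 0.98.

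Most of the differences in leptin-null mice were negative, 29 of 39, with a median of -0.13 where that over all genes was 0.01. Differences above 0 made up 25.6% of the 39 and 52% of all genes. The OB-/- arrays also enter the comparison with wild-type, where 33 of the 39 were above 0, so the 2 counts are not independent. Summed log2 signal of the 39 was 16.97 and 16.85 in OB-/- replicates 1 and 2, and 16.79 and 16.84 in OB-/-/SHP-/-. Against OB-/-, Aldh3a2 in the double knockout was at -0.58 ± 0.14 (limma adjusted p = 0.0644), and 4 alternatives (quantile normalisation, equal array medians, eBayes with trend and averaged probe sets) called it lower. Decr1, Decr2 and Ech1, all auxiliary enzymes, gave -0.49 ± 0.15, -0.48 ± 0.16 and -0.43 ± 0.15 (adjusted p = 0.168, 0.199 and 0.246). None of these is a call, and 5 of the 39 had an unadjusted p below 0.05 (12.8%, against 11.7% of all genes). The 95% interval lay within a 2-fold change either way for 36 genes, the exceptions being Cyp4a12a, Abcd2 and Pdk4. Across the 39 genes the SHP comparisons, which share no array, correlated at r = 0.17 and rho = 0.13.

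A further 61 genes of the pathway were listed beside these 41 (receptors and coactivators, fatty acid uptake, ketone synthesis, carnitine supply, further dehydrogenases, peroxisome assembly and other PPAR alpha targets), and 52 were measured. In OB-/- against wild-type 12 rose and 5 fell, 32.7% of them where 16.9% of all genes were called, and without SHP 6 rose and 2 fell, 15.4% where 10.6% were. Acacb, which makes the malonyl-CoA that inhibits Cpt1a, rose by 1.37 ± 0.20 with SHP (limma adjusted p = 0.000977), as did Acsl5, which activates long-chain fatty acids, by 1.02 ± 0.16 (adjusted p = 0.00136), and Tmlhe, the first enzyme of carnitine synthesis, by 0.89 ± 0.13 (adjusted p = 0.000974). Ppargc1a, a coactivator of PPAR alpha and of mitochondrial genes, fell by 1.25 ± 0.15 (adjusted p = 0.000327). Over the alternatives its difference ranged from -1.30 to -0.72. Its means without SHP were 7.17 in SHP-/- and 6.93 in OB-/-/SHP-/-, and its interaction of 1.01 was not called (limma adjusted p = 0.0864). Of the 7 receptors and coactivators 3 fell and none rose in the limma test, while 6 differences were below 0. An unadjusted p below 0.05 was found for 5 of the 7 (71.4%, against 29.4% of all genes). The others are added outside the naming rule with their values already seen: Ppargc1b, a second such coactivator, fell by 1.22 and Rxra, the partner of PPAR alpha, by 0.73 (adjusted p = 0.00159 and 0.0047), and Ppara itself was at 0.69 ± 0.25 (adjusted p = 0.0881).

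In the absence of SHP the same pathway list had its smallest adjusted p for Pex6, an ATPase of peroxisomal protein import, which fell by 1.02 ± 0.17 (limma adjusted p = 0.00379). Slc27a4, a fatty acid transporter, rose by 0.83 ± 0.14, Acsl5 by 0.85 ± 0.16 and Pex3, which is needed to form the peroxisomal membrane, by 0.84 ± 0.16 (adjusted p = 0.00409, 0.00628 and 0.00659). None of the 52 genes was called by limma in either SHP comparison or in the interaction. An unadjusted p below 0.05 was found for 6 in lean mice (11.5%, against 7.12% of all genes). The counts were 8 in leptin-null mice (15.4%, against 11.7%) and 7 in the interaction (13.5%, against 8.28%).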

How the data were processed

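Per the labels, total RNA of mouse liver was labelled with biotin for Affymetrix arrays, and genotype and replicate number came from the sample titles. The deposited table, made by the authors in R 2.15.0 according to the submitters' processing notes, was read as log2 expression per probe set. Its background correction, summarisation and log base are not given in the sources, and base 2 was taken from the range, 2.20 to 14.19. Values were used as deposited.

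Of 22690 probe sets 64 were controls, and of the rest 20380 named 1 gene, 691 several and 1555 none. All 8 arrays entered one linear model with a mean for each genotype, in limma 3.58.1 (R 4.3.3, data.table version 1.17.8), with 4 residual and 7.16 prior degrees of freedom. The fit was tested on simulated data. Tests were two-sided and adjusted over 12393 genes. Promoter windows came from RefSeq (GRCm38.p6). Arrays give no counts, so their number limits the precision.

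The members, role groups, pathway and marker lists were chosen with earlier results of these data known. Array values are given for each member called in an SHP comparison, for up to 4 called per role group in a leptin comparison by size, and otherwise for members of highest mean until 2 are shown. Other pathway genes are named by smallest adjusted p, up to 4 per comparison. Abcd2, Crat, Decr1, Hsd17b4, Cyp4a12a, Cyp4a14 and Acaa2 have no promoter window in the table used.

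As alternatives, a filter at the 40th percentile, quantile normalisation, equal array medians, eBayes with trend, averaged probe sets, no x_at or s_at probe sets, the 4 arrays compared alone, the replicate number as a block, each array left out, and OB-/- and SHP-/- replicate 1 left out together were tried. Testing every probe set by itself was added after seeing the data.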

Additional observations from a re-analysis of the deposited data

How the results depend on the processing

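With 2 arrays per genotype, 18 of the 26 called member differences lost their call in at least 1 of up to 17 alternatives, 8 kept it in all, and 0 reversed. Among the uncalled member differences, 11 were called in at least 1 alternative. In lean mice the 1 call for SHP loss became 0 with quantile normalisation, averaged probe sets or only the arrays compared, and ranged from 0 to 2 with an array left out. In leptin-null mice the 1 call became 2 with quantile normalisation, equal array medians, eBayes with trend or the mean of probe sets, and 0 to 1 with an array left out. The 15 calls in OB-/- against wild-type became 9 with replicate 1 of both OB-/- and SHP-/- left out, and 7 to 15 with 1 array left out. The 9 calls in OB-/-/SHP-/- against SHP-/- became 5 with only the arrays compared and 4 with both arrays left out, with a range of 4 to 8. The interaction count of 0 ranged from 0 to 2. Fits with fewer arrays have fewer degrees of freedom, and for the other settings the cause was not tested. With 1 array left out, the array that stays alone is taken to have the spread of the other groups. Same-numbered arrays correlated in their deviations at -0.11 to 0.20 over 6 pairs of genotypes, 3 of them above 0.1. These 3 were the pairs among wild-type, OB-/- and OB-/-/SHP-/-. With 2 arrays per genotype this cannot settle whether replicate numbers pair the samples. With the replicate block the counts were 1, 1, 14, 8 and 0 in the order above. The filter on dim genes and the removal of x_at and s_at probe sets kept each count within 1.5 times the main one.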
